A study of Rattus norvegicus with 18 samples.

Results

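The nuclear-encoded subunits of oxidative phosphorylation were examined in rat nucleus pulposus cells kept in culture, which form the soft centre of the disc between vertebrae. Members were chosen by gene name alone, as the rows of the count table named Ndufa, Ndufb, Ndufc, Ndufs or Ndufv with a number, Sdha to Sdhd, Uqcr, Cox4i1, Cox5, Cox6, Cox7, Cox8 or Atp5. Ndufa4l2, Cox4i2 and the Ndufaf assembly factors were left out, and of rows with the same symbol the row with the highest total was kept. This gave 87 rows and 83 members of 33898 genes. Of these, 75 members had enough counts to be tested, among 14184 tested genes. The cells came from Sprague Dawley rats aged 8 weeks, were grown in medium with serum, and were seeded for 24 h before 24 h with 1 of the compounds PDS, Phen-DC3 and Braco-19. All are ligands of G-quadruplexes, folded structures of guanine-rich nucleic acids. The 18 libraries formed 6 groups of 3. Control groups are named for PDS and for Phen-DC3, and the remaining control group, which names no compound, was taken as that of Braco-19 by elimination. The labels give no dose, and do not say what the controls received or whether the 3 libraries of a group came from separate cultures or animals, so p-values measure only the spread between these libraries.

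Oxidative phosphorylation makes ATP in the inner mitochondrial membrane. Complex I takes electrons from NADH and complex II from succinate, complex III passes them from ubiquinol to cytochrome c, complex IV passes them to oxygen, and complex V, the ATP synthase, uses the proton gradient that complexes I, III and IV build. Most subunits are encoded in the nucleus, while a small set is encoded in mitochondrial DNA, and the promoters of the nuclear genes are known to share binding sites of NRF1, of the ETS factor GABP and of YY1. Nucleus pulposus cells live in a tissue without vessels and are known for a glycolytic metabolism. The members comprised 35 genes of complex I (34 tested), 4 of complex II, 8 of complex III, 19 of complex IV (12 tested) and 17 of complex V. Ndufa4, which is named for complex I, was counted in complex IV, where its protein resides. The tested members lay on 20 chromosomes, with at most 10 on 1 chromosome.

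The level of a member per length was first described as RPKM, reads scaled to gene length and library size, averaged over the 18 libraries. Atp5f1b, the catalytic beta subunit of the ATP synthase, was highest at 723 RPKM, followed by Cox6a1 at 648, Cox4i1 at 529 and Atp5mc2, a gene of the membrane ring subunit c, at 464. The median over tested members was 98.5 RPKM in complex I, 95.6 in complex II, 156 in complex III, 248 in complex IV and 263 in complex V. The medians of complexes IV and V were above those of complexes I and II, although 4 genes of complex V, Atp5me at 91.5, Atp5f1c at 27.1, Atp5md at 14.6 and Atp5pb at 4.66 RPKM, lay below both of the latter. The RPKM of Atp5f1c rests on a gene length of 7359 bases in the deposited table, the longest of the tested members. Before division by length it had 218, 206 and 239.6 CPM in the PDS controls. The lowest tested members were Atp5pb and, at 11.7 RPKM, Ndufa1.

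Isoforms known from heart and skeletal muscle were near or at 0. Cox6a2 had 43 counts over all libraries against 107709 for its ubiquitous partner Cox6a1. In the PDS controls this was 0.414 ± 0.611 against 905 ± 80.4 RPKM (SD, n = 3), and in the Braco-19 controls 0.0833 ± 0.144 against 206 ± 5.72 RPKM. Cox8b had 5 counts against 63237 for Cox8a, and Cox7a1 had 37 counts. Cox6b2, the isoform of testis, had 78 counts against 45294 for Cox6b1. These genes, together with Cox7b2, Cox8c and the pseudogene Cox6c-ps1 (each at 0 counts) and the row named Ndufs6 (7 counts), were too low to be tested. That row is a processed copy of Ndufs6 by its annotation. No row named Cox7a2 was found, and Cox7a2l2 on chromosome 8 and Cox7a2l, a factor of supercomplex assembly, were measured at 198 and 114 RPKM.

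Counts of near-identical copies limit some members. Uqcrb, a complex III subunit, has a row on chromosome 1 (94718402 to 94718876, 12334 counts, kept) and a row on chromosome 7 (71264514 to 71269869, 4502 counts), in the positions of the deposited table, for which the sources used here name no build. The kept row has a gene length of 475 bases, its whole span, and so no introns. The row on chromosome 7 has 1029 bases within a longer span. The kept row thus has the form of a processed copy, and it stands for Uqcrb in all counts and medians here. From the PDS controls to PDS the kept row had group means of 47.4 and 53.4 CPM, counts scaled to library size, and the row on chromosome 7 had 19.3 and 13.4. Cox6b1, Ndufa10l1 and Ndufv3 also have a lower second row. Unnamed copies of Atp5pb, Ndufa1, Ndufb4, Ndufa12, Cox5a and Ndufs6 are in the table too, and the values of these genes are uncertain. Ndufa1 had 0.312, 0.123 and 0.467 CPM in the Phen-DC3 controls and 10.4, 0.820 and 0.297 CPM with Phen-DC3. Its libraries jumped by more than 10 times within a group, as did those of Atp5pb, and neither passed a test (Ndufa1 3.63 ± 2.46, adjusted p = 0.35).

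Promoters were read from RefSeq on build GRCr8, which may differ from the build of the counts, for the 70 members that matched by symbol and chromosome. The window ran from 250 bases before to 50 bases after the start. A G-quadruplex motif, here 4 runs of at least 3 guanines with loops of 1 to 7 bases on either strand, was found in 6 of 70 members (8.57%) and in 18.4% of 21851 promoters of protein-coding genes. The NRF1 core GCATGCGC was in 12.9% of members and 3.11% of all promoters, the ETS or GABP core CCGGAAG in 27.1% and 10.7%, and the YY1 core AAGATGGCG in 12.9% and 2.07%, on either strand. The GC content was 56.0% in members and 55.0% over all promoters at the median. The 6 genes with the quadruplex motif were Atp5mc1, Sdhc, Uqcrfs1, Ndufb5, Ndufc1 and Ndufs3.

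The first 3 sequences are shown because they hold the quadruplex motif in the 250 bases before the start, in genes that rose (Sdhc and Uqcrfs1) and did not pass the test (Ndufb5) with Phen-DC3. Sdhb and Atp5mc2 are shown because they rose with Phen-DC3 and carry cores of the known regulators. Each is written in the direction of the gene, with the motif letters in capitals. The positions on GRCr8 are chr13:86098026-86098275, minus strand (Sdhc), chr17:34186352-34186601, plus strand (Uqcrfs1), chr2:117447355-117447604, plus strand (Ndufb5), chr5:158547684-158547933, plus strand (Sdhb) and chr7:135678219-135678468, minus strand (Atp5mc2).
Sdhc: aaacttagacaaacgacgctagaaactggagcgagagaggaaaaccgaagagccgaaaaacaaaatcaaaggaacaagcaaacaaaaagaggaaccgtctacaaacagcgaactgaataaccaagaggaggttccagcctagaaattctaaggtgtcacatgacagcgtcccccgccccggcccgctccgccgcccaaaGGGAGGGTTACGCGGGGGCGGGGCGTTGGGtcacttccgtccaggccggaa
Uqcrfs1: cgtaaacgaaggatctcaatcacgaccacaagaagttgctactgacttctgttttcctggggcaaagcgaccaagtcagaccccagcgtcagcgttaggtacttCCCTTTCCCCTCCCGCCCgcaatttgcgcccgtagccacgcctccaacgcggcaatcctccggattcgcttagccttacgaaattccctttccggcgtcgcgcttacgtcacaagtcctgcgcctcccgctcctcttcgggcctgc
Ndufb5: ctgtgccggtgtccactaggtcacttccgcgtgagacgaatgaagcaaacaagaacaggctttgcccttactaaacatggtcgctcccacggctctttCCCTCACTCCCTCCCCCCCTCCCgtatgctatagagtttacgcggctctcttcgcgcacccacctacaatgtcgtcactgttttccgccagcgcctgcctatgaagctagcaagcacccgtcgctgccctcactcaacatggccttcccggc
Sdhb: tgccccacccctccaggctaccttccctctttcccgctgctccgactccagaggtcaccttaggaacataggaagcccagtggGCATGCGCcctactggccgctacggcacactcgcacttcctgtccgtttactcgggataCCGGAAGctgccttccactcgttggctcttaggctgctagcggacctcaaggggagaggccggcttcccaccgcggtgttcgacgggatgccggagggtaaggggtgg
Atp5mc2: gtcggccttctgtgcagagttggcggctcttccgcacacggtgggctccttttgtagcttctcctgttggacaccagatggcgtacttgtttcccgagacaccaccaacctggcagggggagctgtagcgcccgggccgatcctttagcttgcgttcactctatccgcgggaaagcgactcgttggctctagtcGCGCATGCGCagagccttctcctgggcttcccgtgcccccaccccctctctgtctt
In Sdhc the motif is on the strand shown, as runs of G, and in Uqcrfs1 and Ndufb5 it is on the opposite strand, as runs of C. In Sdhb the capitals mark the NRF1 core and, nearer to the start, the ETS core, and in Atp5mc2 overlapping matches of the NRF1 core on both strands. A match describes letters in this window and no binding was measured.

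Library totals were 15715121 to 18369443 counts. The 83 members together took 1.28 to 1.42% of counts in the PDS controls and 1.19 to 1.22% with PDS. They took 1.09 to 1.30% in the Phen-DC3 controls, and the treated libraries had 1.29 to 1.48%. In the Braco-19 controls the share was 0.526 to 0.547%, and with Braco-19 it was 0.574 to 0.662%. The share was thus lower with PDS than in each of its controls and higher with Braco-19 than in each of its controls, while 1 Phen-DC3 library overlapped with the highest Phen-DC3 control. The Braco-19 cultures, treated or not, lay below each other library. Libraries of one group differed by a mean squared difference of 13.7 to 36.8 times counting error among the Phen-DC3 controls, 6.87 to 17.1 with Phen-DC3 and 4.28 to 13.2 in the other groups. In RNA of whole cultures, fewer cells of a type and less RNA per cell cannot be told apart.

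**Figure D1:**
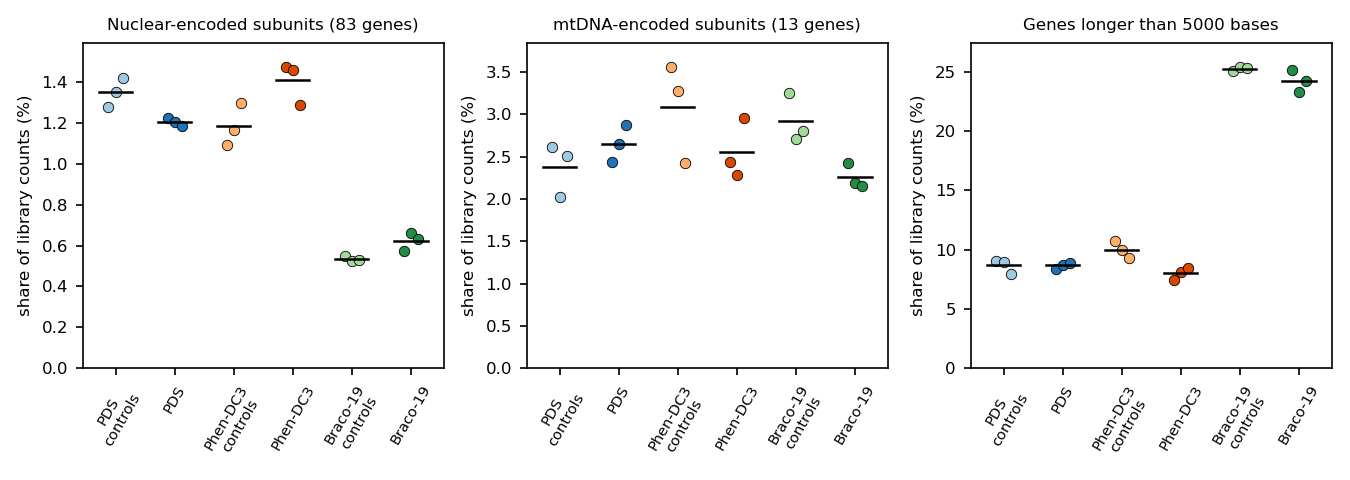
Share of all counts in each library (points, 3 per group, line at the mean) for the 83 nuclear-encoded subunits, for the 13 subunits encoded in mitochondrial DNA and for genes longer than 5000 bases. The nuclear subunits took 0.526 to 0.662% in the Braco-19 cultures and 1.09 to 1.48% in the others, while long genes took 23.3 to 25.4% in the Braco-19 cultures and 7.42 to 10.7% in the others.

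Markers of the labelled cells and of others were checked. Of the nucleus pulposus and notochord markers, Tbxt and Krt19 were at 0 in each group and Acan, the main disc proteoglycan, was at 0.140 to 2.85 CPM in group means. Pax1 and Foxf1 were present at 76.1 to 111 and 35.1 to 44.2 CPM, and the summed level of the list was 219.7 to 259 CPM in the libraries. The other markers of this list are given only within that sum. Fibroblast markers summed to 2643 to 3188 CPM in the PDS and Phen-DC3 cultures and to 5742 to 7531 CPM in the Braco-19 cultures, while smooth muscle and pericyte markers summed to 1368 to 2246 CPM in the former and 443 to 654 CPM in the latter. The sums of smooth muscle markers were higher in each treated library than in each control for PDS and Phen-DC3. Striated muscle markers summed to 3.61 to 8.18 CPM, and endothelial, erythroid and adipocyte lists to at most 1.82 CPM, with Cdh5 and Hba-a1 at 0. The leukocyte markers Ptprc, C1qa and C1qb were at 0, and Cd14 made up nearly all of that list. With PDS, 2 of 10 tested nucleus pulposus and notochord markers rose and 1 fell, where 5.13% of all genes rose and 2.96% fell. Of 4 tested smooth muscle and pericyte markers, 1 rose with PDS. Of 6 tested fibroblast markers, 1 fell with Phen-DC3, where 5.82% of all genes fell. No other listed marker passed with any compound. The part of cell composition in the members' levels was not tested.

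Under PDS, 2 of 75 members fell and 0 rose, both of the fallen genes being subunits of complex I. DESeq2 and limma voom also called 0 members higher. Over all tested genes 2.96% fell and 5.13% rose, so the share of members that fell was near the background. Ndufv1, the flavoprotein that takes electrons from NADH (protein-coding, chromosome 1, 219254279 to 219259448 in the deposited table), had 115, 133 and 142 CPM in the controls and 99.3, 104 and 104 CPM with PDS. Each PDS library lay below each control, and the log2 fold change was -0.34 ± 0.10 (SE, edgeR adjusted p = 0.036). Ndufb9, an accessory subunit of the membrane arm (chromosome 7, 98813040 to 98819452), had 138, 146 and 150.3 CPM in the controls and 123, 118 and 115 CPM with PDS, again without overlap (-0.28 ± 0.074, adjusted p = 0.021).

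The other 73 members did not pass the test under PDS, but most had lower values. The log2 fold change was negative in 64 of 75 members, while 52.8% of all tested genes had a positive value. The median was -0.15 against 0.02 over all tested genes. An unadjusted p under 0.05 was found in 14 members, without a share of all genes to set it against. In 29 members all 3 PDS libraries lay below all 3 controls, and in 0 members above, where 15.6% of all genes were separated downward and 17.7% upward. The median was -0.19 in complex I, -0.069 in II, -0.082 in III, -0.11 in IV and -0.16 in V. In complex II, Sdha, the flavoprotein of succinate dehydrogenase, had 175, 169 and 178 CPM in controls and 156, 152 and 148 CPM with PDS, without overlap (-0.20 ± 0.066, adjusted p = 0.07). Sdhb, its iron-sulphur partner, had 127, 131 and 139 against 132, 139 and 135 CPM and overlapped (0.032 ± 0.071, adjusted p = 0.82).

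In complex III the smallest p under PDS was that of Uqcr11, a small subunit of the complex, with 133, 154 and 174 CPM in controls and 118, 116 and 109 CPM with PDS (-0.43 ± 0.24, adjusted p = 0.31). Cox4i1, the main regulatory subunit of complex IV, had 488, 532 and 559 CPM in controls and 449, 452 and 433 CPM with PDS (-0.24 ± 0.091, adjusted p = 0.11). Both genes separated fully between the groups and neither passed the test. Atp5f1e, the epsilon subunit of the rotor of the ATP synthase, had 147, 158 and 180.5 against 136, 134 and 130.0 CPM, also without overlap (-0.28 ± 0.11, adjusted p = 0.15). Atp5if1, the inhibitor of the synthase, had 154, 167 and 194 against 160.0, 166 and 168 CPM, with overlapping groups (-0.06 ± 0.12, adjusted p = 0.80).

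The count for PDS depended on the libraries in the fit. With the 6 PDS libraries alone, 20 members fell and 0 rose, where 8.08% of all genes fell, and both genes above were among them. Ndufb6, an accessory subunit of complex I, then had -0.64 ± 0.12 (adjusted p = 0.0072), and Ndufa13 had -0.54 ± 0.081 (adjusted p = 0.00035). Ndufb6 had 76.0, 79.7 and 84.3 CPM in controls and 63.1, 49.0 and 43.1 CPM with PDS, and Ndufa13 115, 116 and 135 against 94.6, 79.0 and 81.0 CPM. In the fit of all 18 libraries, which pools the spread over all groups, they had adjusted p = 0.12 and 0.24. Why the 2 fits differ was not tested. Without PDS control replicate 2 or 3 or PDS replicate 2 or 3, 0 members passed, and without PDS replicate 1, 1 passed.

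**Figure D2:**
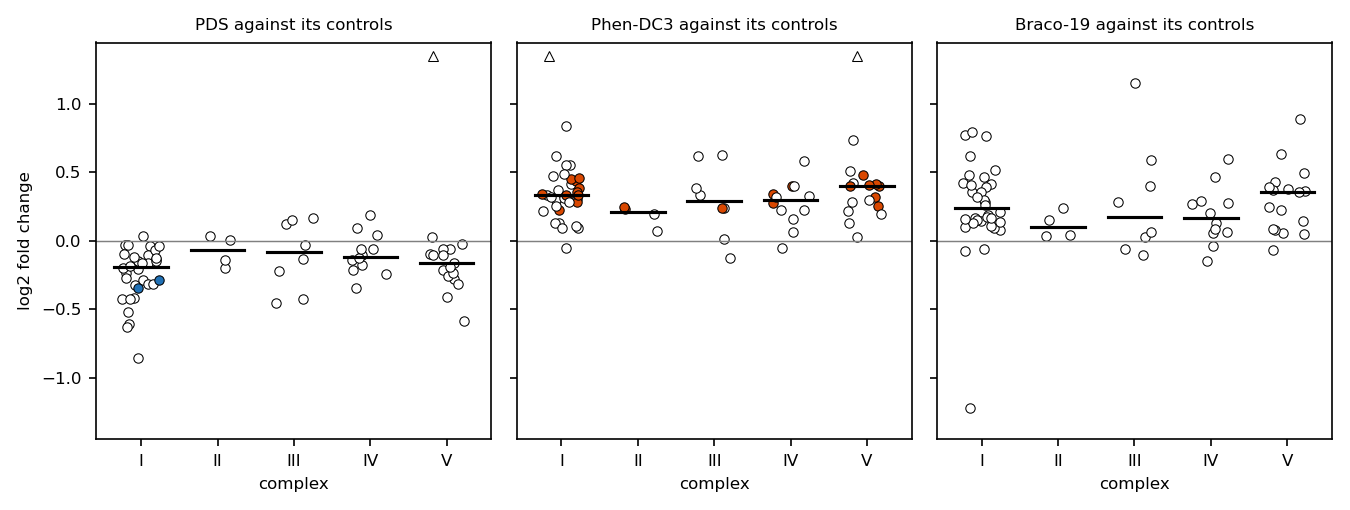
Log2 fold change of each tested member (points) against the own controls of each compound, by complex, with the median as a line. Filled orange points rose and filled blue points fell in edgeR, open points did not pass, and triangles lie beyond the axis. With PDS 2 points are blue, with Phen-DC3 24 are orange, and with Braco-19 each point is open while 67 of 75 lie above 0.

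Under Phen-DC3 the direction was the opposite: 24 of 75 members rose and 0 fell. Over all tested genes 2.19% rose and 5.82% fell. The 24 comprised 11 genes of complex I, 2 of complex II, 1 of complex III, 3 of complex IV and 7 of complex V. The median log2 fold change was 0.32 (0.34 in complex I, 0.21 in II, 0.29 in III, 0.30 in IV and 0.40 in V) against -0.0091 over all tested genes. A positive value was found in 72 of 75 members and in 48.7% of all tested genes. In 37 members all 3 Phen-DC3 libraries lay above all 3 controls, and in 0 members below, where 10.1% of all genes were separated upward and 11.9% downward. DESeq2 called 37 members higher, where 7.12% of the genes with an adjusted p in DESeq2 were higher, and limma voom 57, where 16.0% of all genes were. The edgeR counts rest on the pooled spread of the 18 libraries. With the 6 Phen-DC3 libraries alone and after a correction for gene length, 0 members passed. The same held without Phen-DC3 control replicate 1 or 2 or Phen-DC3 replicate 1 or 2. Without control replicate 3, 48 passed, and without Phen-DC3 replicate 3, 42 passed. Shares of all tested genes are not given here for the fits without 1 library, so their counts have no background. Over all tested genes, only 1 rose and 0 fell with the 6 libraries alone, and 22 rose and 25 fell after the length correction. Few genes of any kind passed in these 2 fits, so 0 members there does not set the members apart.

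Among the 8 called members with the largest changes, 5 belong to the ATP synthase. Atp5f1e (chromosome 3, 172563105 to 172566010) had 100.1, 118 and 137 CPM in the controls and 184, 166 and 146 CPM with Phen-DC3. Each treated library exceeded each control (0.48 ± 0.11, adjusted p = 0.021). Atp5f1d, the delta subunit beside it on the rotor, had 255, 341 and 391 against 479.9, 415 and 409 CPM, also without overlap (0.40 ± 0.11, adjusted p = 0.039). Of the genes for subunit c, the proton-carrying ring, Atp5mc1 had 93.5, 109.7 and 139 against 159, 172 and 125 CPM. Its groups overlapped, because control 3 was above Phen-DC3 replicate 3 (0.41 ± 0.12, adjusted p = 0.045). Atp5mc2 had 278, 346 and 377 against 471, 456 and 401 CPM without overlap (0.41 ± 0.11, adjusted p = 0.036). Atp5mf, a subunit of the membrane part, had 128, 156 and 176 against 211, 222 and 174 CPM (0.40 ± 0.11, adjusted p = 0.032), and its highest control was above its lowest treated library.

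The abundant subunits of the catalytic head had smaller changes. Atp5f1b rose from 1352, 1386 and 1582 to 1860, 1734 and 1551 CPM (0.25 ± 0.074, adjusted p = 0.042), although its highest control exceeded its lowest treated library. Atp5f1a, the alpha subunit beside it in the catalytic head, had 696, 682 and 739.6 against 790.5, 769.5 and 761 CPM and separated fully, but did not pass (0.13 ± 0.056, adjusted p = 0.13). Atp5pd, a stalk subunit, was the seventh called gene of complex V (0.32 ± 0.085, adjusted p = 0.03). Atp5if1 did not pass (0.20 ± 0.12, adjusted p = 0.28).

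In complex I, Ndufb10, an accessory subunit of the membrane arm (chromosome 10, 14090128 to 14092289), had 45.9, 69.3 and 75.7 CPM in the controls and 93.4, 85.5 and 83.2 CPM with Phen-DC3, without overlap (0.46 ± 0.13, adjusted p = 0.042). Ndufa5 had 75.5, 102 and 118 against 141, 140.4 and 124 CPM (0.45 ± 0.13, adjusted p = 0.039), and Ndufa2 70.0, 75.4 and 84.0 against 112, 105 and 93.1 CPM (0.44 ± 0.10, adjusted p = 0.016). Both are accessory subunits of the matrix arm, and in both each treated library was above each control. The other genes of complex I that rose were Ndufa9, Ndufb4, Ndufb9, Ndufb11, Ndufc2, Ndufs7, Ndufs8 and Ndufv2, with log2 changes of 0.22 to 0.39. Ndufs7, Ndufs8 and Ndufv2 carry iron-sulphur clusters of the electron path. Ndufs1, the longest of these cluster proteins, had 134, 136 and 126 against 130.4, 119.6 and 132 CPM, with overlapping groups and no change past the test (-0.053 ± 0.071, adjusted p = 0.66).

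In complex II, Sdhb had 121, 120.3 and 133 CPM in the controls and 160.2, 145 and 134 CPM with Phen-DC3, with each treated library higher (0.23 ± 0.071, adjusted p = 0.047). Sdhc, a membrane anchor whose promoter with the quadruplex motif is printed above, rose as well (0.25 ± 0.073, adjusted p = 0.046), while Sdha had 0.071 ± 0.066 (adjusted p = 0.50). In complex III, Uqcrfs1, the Rieske iron-sulphur protein, whose printed promoter also holds it, had 195, 194 and 195 CPM in the controls and 242, 218 and 231 CPM with Phen-DC3. Its controls lay within 1 CPM of each other and below each treated library (0.24 ± 0.063, adjusted p = 0.029). Uqcrc1, a core subunit, had 276, 260.3 and 292 against 367, 307 and 305 CPM, separated fully and did not pass (0.24 ± 0.083, adjusted p = 0.071).

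In complex IV, Cox4i1 had 383, 425 and 475 CPM in the controls and 613, 531 and 482 CPM with Phen-DC3, each treated library being higher (0.34 ± 0.091, adjusted p = 0.032). Cox5a (0.27 ± 0.084, adjusted p = 0.049) and Cox6b1 (0.40 ± 0.11, adjusted p = 0.033) also rose. Cox6a1 had the largest log2 change of the complex but a wide spread, with 275, 362 and 518 against 608, 688 and 438 CPM and overlapping groups (0.59 ± 0.23, adjusted p = 0.12). Cox8a had 228, 201 and 283 against 322, 334 and 236 CPM (0.32 ± 0.14, adjusted p = 0.14), Cox7a2l 0.22 ± 0.073 and Ndufa4 0.062 ± 0.11 on the log2 scale, and none of these passed.

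**Figure D3:**
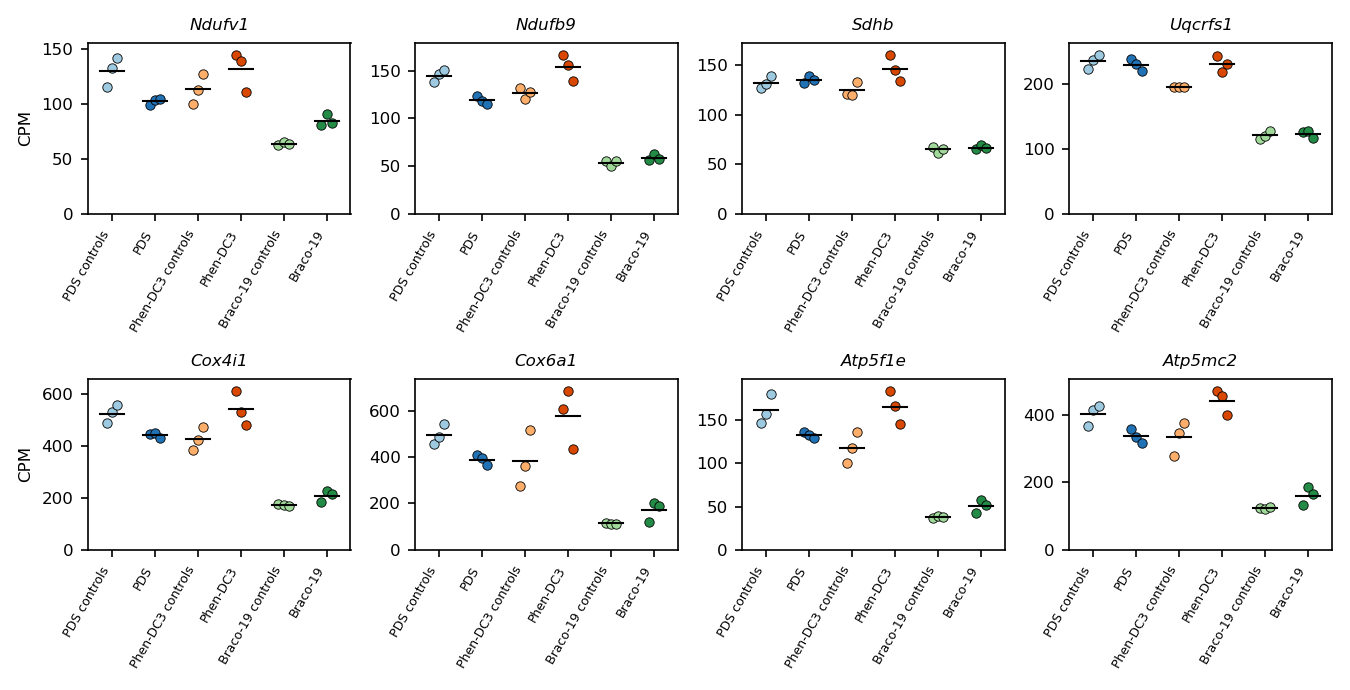
CPM of 8 members in each library (points, 3 per group, line at the mean), with each axis starting at 0. Ndufv1 had 115, 133 and 142 CPM in the PDS controls and 99.3, 104 and 104 with PDS, Atp5f1e had 100.1, 118 and 137 CPM in the Phen-DC3 controls and 184, 166 and 146 with Phen-DC3, and the Braco-19 cultures were lowest for each of the 8 genes.

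Under Braco-19, 0 of 75 members passed the test in edgeR, where 0.169% of all genes rose and 0.106% fell. Their values were mostly higher all the same. The log2 fold change was positive in 67 of 75 members and in 50.5% of all tested genes. The median was 0.23 (0.24 in complex I, 0.099 in II, 0.17 in III, 0.16 in IV and 0.36 in V) against 0.0023 over all genes. An unadjusted p under 0.05 was found in 33 members, without a share of all genes to set it against. In 37 members all 3 Braco-19 libraries lay above all 3 controls and in 1 member below, where 13.7% of all genes were separated upward and 14.4% downward. The member below was Uqcrc2, a core subunit of complex III (-0.10 ± 0.10, adjusted p = 0.59). By DESeq2 5 members rose, where 2.21% of the genes with an adjusted p rose, and by limma voom 25, where 6.58% of all genes rose. With the 6 Braco-19 libraries alone 19 rose, where 3.21% of all genes rose in that fit.

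Ndufv1 had the smallest p in complex I, with 62.7, 65.2 and 63.7 CPM in the controls and 80.9, 91.2 and 82.5 CPM with Braco-19, a full separation (0.41 ± 0.10, adjusted p = 0.098). With these 6 libraries alone it rose by 0.41 ± 0.073 (adjusted p = 0.0085). Ndufb6 and Ndufa13 had the largest changes among the 19 genes of that fit, with 0.77 ± 0.12 and 0.80 ± 0.13 (adjusted p = 0.0057 and 0.0088). Ndufb6 had 17.3, 18.8 and 20.6 against 26.1, 35.1 and 35.4 CPM, and Ndufa13 24.1, 26.3 and 24.1 against 33.7, 50.4 and 44.9 CPM, each without overlap.

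In the other complexes, Sdhd, a membrane anchor of complex II, had 59.3, 58.8 and 52.1 against 65.7, 67.9 and 67.1 CPM (0.24 ± 0.073, adjusted p = 0.14). Cox5a had 89.4, 99.1 and 91.5 against 109.8, 122 and 111 CPM (0.29 ± 0.085, adjusted p = 0.13), and Atp5f1e 36.8, 38.6 and 37.2 against 42.4, 57.9 and 51.5 CPM (0.43 ± 0.12, adjusted p = 0.12). All 3 separated fully, and none passed in the fit of 18 libraries. Uqcrc1 had 145, 122 and 122 against 143, 169 and 162 CPM, with overlap at 1 control (0.28 ± 0.084, adjusted p = 0.13). Sdhb (0.044 ± 0.072) and Uqcrfs1 (0.027 ± 0.064), which rose with Phen-DC3, had values near 0 here.

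**Figure D4:**
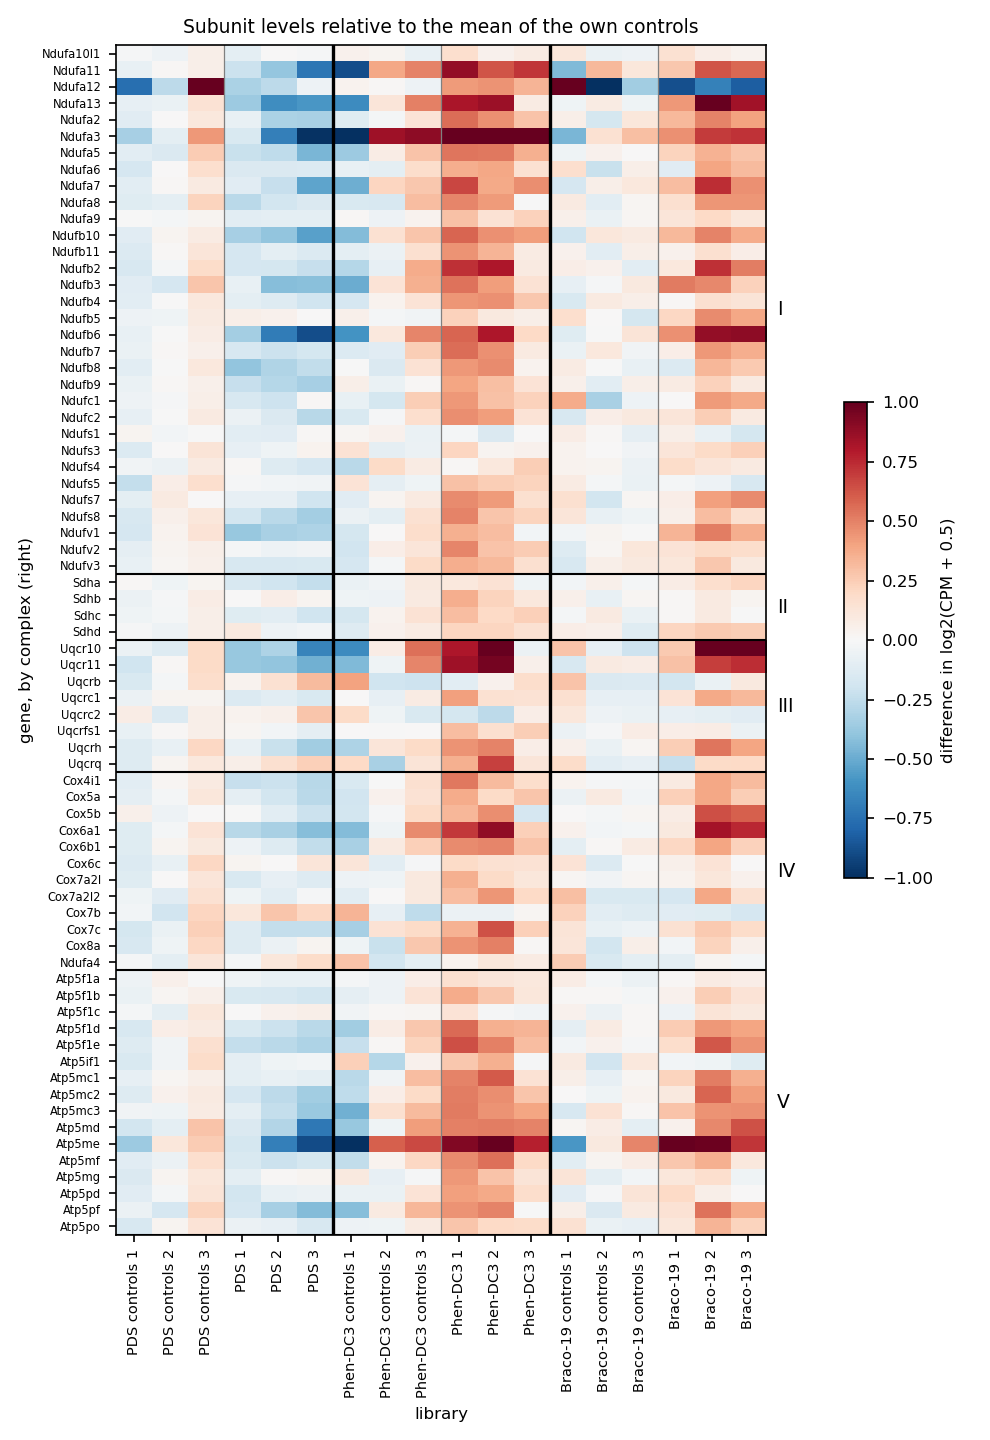
Level of 72 tested members in each library as log2(CPM + 0.5) minus the mean of the own 3 controls, with colours limited at 1 in each direction and genes ordered by complex. Ndufa1 and Atp5pb are left out because their counts jump between libraries, and 1 further member is not shown. PDS libraries are mostly blue and Phen-DC3 and Braco-19 libraries mostly red, and Phen-DC3 control 1 is bluer than the other controls.

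The difference between the effects of 2 compounds was tested directly, although the labels give no doses and the doses may not match. For PDS against Phen-DC3, 38 of 75 members had a lower change with PDS and 0 a higher one, where 7.76% of all genes were lower. These were 17 genes of complex I, 2 of II, 4 of III, 5 of IV and 10 of V. Ndufb10 had -0.42 ± 0.13 with PDS and 0.46 ± 0.13 with Phen-DC3, a difference of -0.88 ± 0.19 (adjusted p = 0.0047). Atp5f1e differed by -0.76 ± 0.16 (adjusted p = 0.0047), Ndufa2 by -0.67 ± 0.14 (adjusted p = 0.0037) and Ndufa5 by -0.77 ± 0.18 (adjusted p = 0.0082). The count was 14 after the correction for gene length, where 6.55% of all genes were lower. It was 25 and 19 without PDS control replicates 2 and 3, and 23 and 19 without PDS replicate 2 and 3. It was 22 without Phen-DC3 control replicate 1, and 18 and 22 without Phen-DC3 replicate 1 and 2. Shares of all genes in these fits without 1 library are not given here.

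For PDS against Braco-19, 17 of 75 members had a lower change with PDS and 0 a higher one, where 6.75% of all genes were lower. They comprised 9 genes of complex I, 1 of II, 2 of III, 2 of IV and 3 of V. Ndufv1 differed by -0.75 ± 0.14 (adjusted p = 0.0026), Ndufb6 by -1.40 ± 0.34 (adjusted p = 0.019) and Ndufa13 by -1.31 ± 0.37 (adjusted p = 0.036). After the correction for gene length the count was 11, where 6.87% of all genes were lower. It was 11 and 10 without PDS control replicate 2 and 3, 11 and 7 without PDS replicate 2 and 3, and 11 without Braco-19 control replicate 3. Without Braco-19 replicate 1, 2 and 3 it was 31, 6 and 9. Shares of all genes in the fits without 1 library are again not given.

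For Phen-DC3 against Braco-19, 0 members differed in edgeR, DESeq2 or limma voom, where 0.0494% of all genes differed in either direction in edgeR. At an unadjusted p under 0.05 there were 3: Ndufb4, Ndufs5 and Uqcrfs1, each with the larger change under Phen-DC3. Their adjusted p in edgeR were 0.48, 0.42 and 0.47. A count of 3 in 75 is close to what this threshold passes without any difference. The 95% interval of the difference was 0.032 to 0.55 for Ndufb4 and 0.027 to 0.40 for Uqcrfs1 on the log2 scale, without adjustment for the number of genes. For Atp5f1e it was -0.30 to 0.40, for Cox4i1 -0.20 to 0.34 and for Ndufb6 -1.01 to 0.45. The intervals were narrower than 0.5 in 18 of 75 members and wider in the others. Of the 75 members, 60 had a negative value with PDS and positive values with both other compounds. How many of all tested genes share this pattern was not counted. All tested genes under 1000 bases had medians of -0.082 with PDS, 0.21 with Phen-DC3 and 0.14 with Braco-19, and 52 members are that short. The pattern is thus not particular to the members.

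The Braco-19 controls differed from both other control groups by more, at the median, than any compound differed from its controls. Between PDS controls and Braco-19 controls 72 of 75 members were higher in the PDS controls, where 35.6% of all genes were higher, with a median log2 difference of 1.39. Between Phen-DC3 controls and Braco-19 controls 72 were higher in the Phen-DC3 controls, where 34.6% of all genes were higher, with a median of 1.19. The 3 members that did not pass in either comparison were Atp5pb, Ndufa1 and Ndufa12, which have unnamed copies. Uqcr10, a small subunit of complex III, had 29.2, 27.8 and 34.9 CPM in the PDS controls and 8.09, 6.17 and 5.61 CPM in the Braco-19 controls, a difference of 2.21 ± 0.40. Cox6a1 had 457, 490.3 and 544 against 117, 111 and 112 CPM (2.14 ± 0.24), and Atp5me, a small membrane subunit of the synthase, 29.8, 41.6 and 45.9 against 5.16, 8.54 and 11.3 CPM (2.23 ± 0.44). Ndufs1 differed by far less, with 128, 123 and 125 against 109.8, 105 and 97.7 CPM (0.27 ± 0.072).

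Between PDS controls and Phen-DC3 controls 8 members were higher in the PDS controls and 0 lower, where 1.59% of all genes were higher. These were Ndufb10, Atp5f1d, Atp5f1e, Ndufa2, Ndufs8, Cox5a, Ndufs5 and Uqcrfs1, with differences of 0.27 to 0.50. This comparison and that of Phen-DC3 with its controls share the 3 Phen-DC3 controls. With these 6 libraries alone, and without PDS control replicate 2 or 3 or Phen-DC3 control replicate 1 or 2, 0 members differed. Without Phen-DC3 control replicate 3, 25 differed. How many of all genes differed in these fits is not given here. For Atp5f1e the means were 162 ± 17.1 CPM in PDS controls, 133 ± 3.15 with PDS, 118 ± 18.3 in Phen-DC3 controls and 165 ± 19.3 with Phen-DC3 (SD, n = 3).

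The calls were also counted by promoter motif, over the 64 tested members with a matched promoter. Of the 6 with the quadruplex motif, 3 rose with Phen-DC3 and 0 were called with PDS or Braco-19, and of the 58 tested members without it 19 rose with Phen-DC3 and 1 fell with PDS. Their median log2 changes were 0.24 with the motif and 0.34 without it for Phen-DC3, -0.063 and -0.17 for PDS, and 0.23 and 0.24 for Braco-19. Of the 8 tested members with the NRF1 core 2 rose with Phen-DC3, of the 19 with the ETS core 4, and of the 9 with the YY1 core 4. Without these cores 20 of 56, 18 of 45 and 18 of 55 rose, in the same order. Ndufb5 had 78.3, 74.7 and 73.9 CPM in the Phen-DC3 controls and 88.8, 80.9 and 78.8 CPM with Phen-DC3, without a change past the test (0.13 ± 0.085, adjusted p = 0.32).

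Gene length moved with these differences. The tested members are short, with a median gene length of 704 bases (213 to 7359) against 2248 over all tested genes, and 52 of the 75 are under 1000 bases. Across the 75 members the Spearman correlation of log2 fold change with length was 0.36 for PDS, -0.53 for Phen-DC3 and -0.37 for Braco-19, a description over genes that share libraries. Across the 14184 tested genes it was 0.17, -0.44 and -0.23. Among genes under 1000 bases the median of all genes was -0.082 with PDS, 0.21 with Phen-DC3 and 0.14 with Braco-19, and the median of the 52 members there was -0.21, 0.35 and 0.28. Under Phen-DC3, 19 of these 52 members rose, and 5.69% of all genes of this length did. The single member above 5000 bases, Atp5f1c, the central shaft subunit of the synthase, had 0.031 ± 0.069, 0.031 ± 0.069 and 0.061 ± 0.069 on the log2 scale with the 3 compounds, in the same order. After the correction described next it had -0.077, 0.38 (adjusted p = 0.089) and 0.15. These corrected values rest on its gene length in the deposited table.

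After each library was corrected for its trend with length, the median of the members was -0.095 with PDS, 0.14 with Phen-DC3 and 0.10 with Braco-19. The medians of all tested genes were then 0.0057, 0.014 and -0.0098, in the same order. Then 57 of 75 members were negative with PDS, and 65 and 53 were positive with Phen-DC3 and Braco-19. With PDS, 3 members fell, where 3.80% of all genes fell, a share near that of the members. These were Ndufb10 (-0.35, adjusted p = 0.030), Ndufv1 (-0.33, adjusted p = 0.020) and Sdha (-0.21, adjusted p = 0.039). With Phen-DC3, 0 members passed, where 22 of all tested genes rose and 25 fell. Of the members, 18 had an unadjusted p under 0.05, without a share of all genes to set it against. Atp5f1e had 0.24 (adjusted p = 0.12) and Ndufb10 0.27 (adjusted p = 0.15). Between the controls, 67 members were higher in the PDS controls than in the Braco-19 controls (median 0.68), where 35.4% of all genes were higher, and 67 in the Phen-DC3 controls (median 0.60), where 33.4% were. The part that RNA quality or library preparation had in the trend was not tested.

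**Figure D5:**
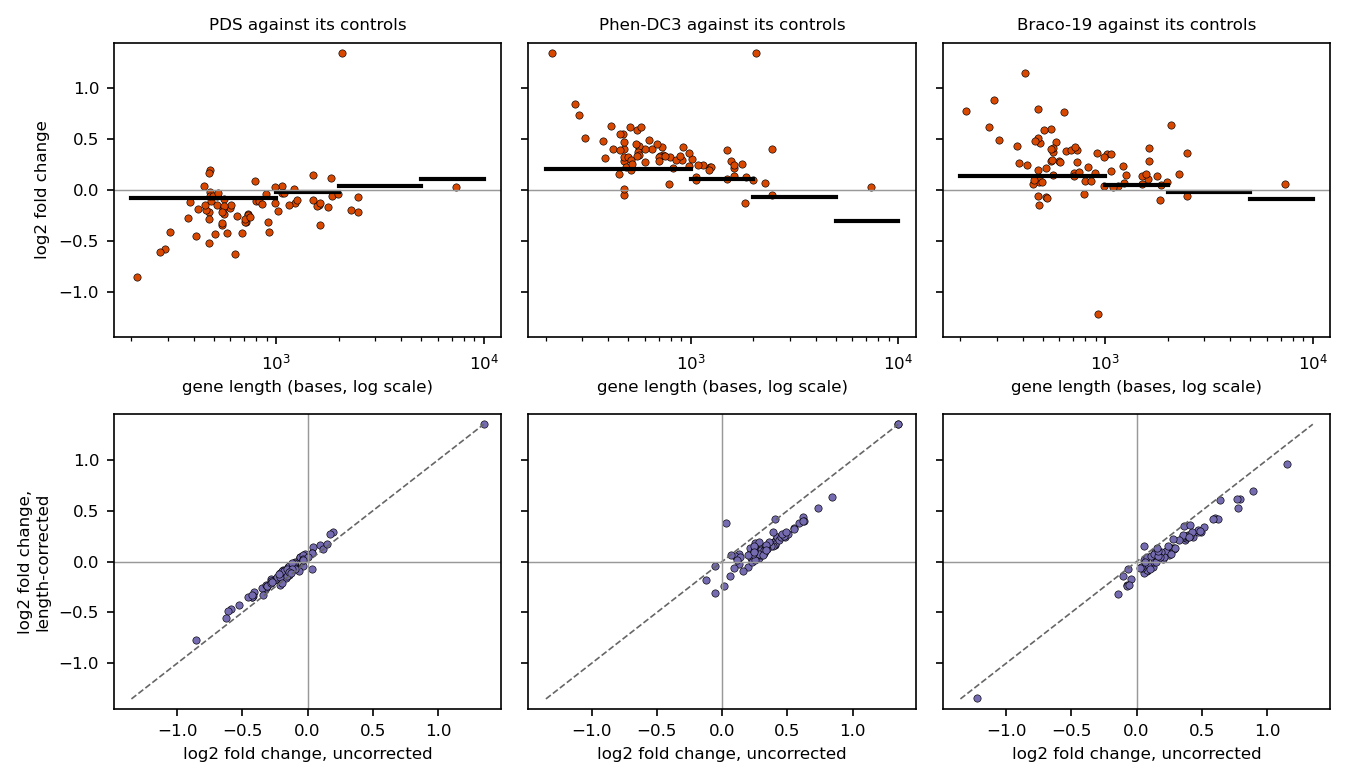
Upper row: log2 fold change of each tested member (points) against gene length on a log axis, with black bars at the median of all tested genes in 4 length classes. Lower row: the length-corrected against the uncorrected log2 fold change of each member, with the line of equality dashed. Values beyond the axis are drawn at its edge. Most members under 1000 bases lie above the black bar of 0.21 with Phen-DC3 and below that of -0.082 with PDS, and after the correction 59 (PDS), 69 (Phen-DC3) and 60 (Braco-19) of 75 points lie nearer to 0 and the others farther from it.

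Subunits encoded in mitochondrial DNA had medians of the opposite sign to the nuclear ones. All 13 were tested, and their median log2 fold change was 0.11 with PDS (-0.0096 without PDS control replicate 2), -0.45 with Phen-DC3 and -0.41 with Braco-19. In edgeR 1 fell with Phen-DC3 (5 by DESeq2, 9 by limma voom, and 0 with the 6 libraries alone or after the length correction) and 0 passed with PDS or Braco-19. With the 6 Braco-19 libraries alone 7 fell, by limma voom 6 and by DESeq2 1, and with the 6 PDS libraries alone or by limma voom 1 rose with PDS. The gene that fell with Phen-DC3 in edgeR was Mt-nd5, a proton-pumping subunit of complex I, with 995, 949 and 556 CPM in Phen-DC3 controls and 473, 452 and 609 CPM with Phen-DC3 (-0.70 ± 0.19, adjusted p = 0.044). Phen-DC3 control 3 lay below Phen-DC3 replicate 3 for this gene. Without Phen-DC3 control replicate 1 or 2 or Phen-DC3 replicate 1 or 2, 0 of 13 fell, and 8 fell when control replicate 3 was left out and 2 when Phen-DC3 replicate 3 was. The ratio of mitochondrial to nuclear subunit counts was 1.87 to 3.26 in the Phen-DC3 controls, and after treatment it was 1.56 to 2.29. It was 5.15 to 5.95 in the Braco-19 controls and 3.31 to 4.22 with Braco-19, without overlap, and 1.49 to 2.05 in the PDS controls against 1.99 to 2.42 with PDS.

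Of 10 tested genes listed as respiratory subunits and carriers that the names do not capture, Dhodh, which feeds electrons to ubiquinone, rose with PDS (0.24 ± 0.075, adjusted p = 0.049). Aox1 fell with PDS (-0.67 ± 0.12, adjusted p = 0.00091), but it encodes aldehyde oxidase, which is not a respiratory subunit or carrier. With Phen-DC3, Dhodh (0.40 ± 0.075, adjusted p = 0.011) and Cyc1 rose and 0 fell, and with Braco-19 0 passed. The call of Dhodh with PDS was lost with RLE or upper-quartile factors, without a count filter, by DESeq2, with the 6 libraries alone, after the length correction and without any 1 of the 6 libraries. With Phen-DC3, 0 of the 10 rose with the 6 libraries alone or without Phen-DC3 control replicate 1 or Phen-DC3 replicate 1 or 2, and 1 rose after the length correction or without control replicate 2. Cyc1, the cytochrome c1 of complex III, had 131, 160.5 and 193 CPM in the Phen-DC3 controls and 234, 209.8 and 188 CPM with Phen-DC3, with 1 overlapping library (0.38 ± 0.10, adjusted p = 0.033). It had -0.20 ± 0.10 with PDS and 0.34 ± 0.10 with Braco-19, neither past the test. Ndufab1, the acyl carrier protein of complex I, passed with no compound (log2 -0.068, 0.16 and 0.21).

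Of 5 tested isoforms and switch genes of low oxygen, which the name rule leaves out, 1 rose with PDS, 0 with Phen-DC3 and 1 with Braco-19, with medians of 0.21, 0.25 and 0.41. Cox4i2, the partner of Cox4i1 that is induced in hypoxia, had 119, 136 and 121 CPM in the PDS controls and 189.5, 188 and 183 CPM with PDS, a full separation (0.58 ± 0.074, adjusted p = 3.9e-05). With Braco-19 it rose from 17.7, 17.4 and 17.6 to 22.7, 24.8 and 22.3 CPM (0.41 ± 0.084, adjusted p = 0.037), a call that was lost in the fits with RLE or upper-quartile factors, without a count filter, after the length correction, and without any 1 of the 6 libraries other than Braco-19 replicate 1. With Phen-DC3 it did not pass (0.094 ± 0.075, adjusted p = 0.42), and the change with PDS exceeded that with Phen-DC3 by 0.48 ± 0.11 (adjusted p = 0.0053). Ndufa4l2, the hypoxic counterpart of Ndufa4, had 376, 415 and 431 CPM in the PDS controls and 466, 465 and 430.3 CPM with PDS, with overlap at 1 library (0.16 ± 0.09, adjusted p = 0.31). Higd2a of the same list was lower with PDS, with 44.9, 47.7 and 50.8 CPM in the controls and 41.7, 39.1 and 31.2 CPM with PDS, and did not pass. Pdk1, a kinase that shuts pyruvate out of the citric acid cycle, rose with PDS from 61.9, 64.8 and 58.0 to 90.2, 94.8 and 88.9 CPM (0.57 ± 0.073, adjusted p = 3.9e-05). Mpc2, a subunit of the mitochondrial pyruvate carrier, fell with PDS (-0.45 ± 0.13, adjusted p = 0.036). Mpc1, the other subunit of that carrier, went the other way. It had 70.4, 65.5 and 70.25 CPM in the PDS controls and 81.0, 76.0 and 79.3 CPM with PDS, and did not pass. Of the list of the citric acid cycle and pyruvate entry, to which Mpc2 belongs, 0 genes fell without any 1 PDS control or without PDS replicate 2 or 3.

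Few genes of the other mitochondrial lists passed. The median log2 changes with PDS, Phen-DC3 and Braco-19 were -0.015, 0.18 and 0.088 for assembly factors, 0.12, -8.8e-05 and -0.061 for biogenesis regulators, -0.029, 0.07 and 0.033 for the citric acid cycle and pyruvate entry, and 0.023, 0.096 and 0.079 for carriers and import. With Braco-19, 0 genes of these 4 lists passed in edgeR. With the 6 Braco-19 libraries alone, 2 assembly factors, 2 genes of the citric acid cycle list and 4 carriers rose and 1 regulator fell. By limma voom 3 assembly factors, 3 genes of the citric acid cycle list, 5 carriers and 3 regulators rose, and 1 assembly factor, 1 carrier and 1 regulator fell. Some list medians changed sign, for example to -0.0104 for the citric acid cycle with Braco-19 and to -0.00044 with Phen-DC3 after the length correction. Of 42 tested assembly factors, 0 passed with PDS (5 fell with the 6 PDS libraries alone), and with Phen-DC3 Pet100, a factor of complex IV assembly, rose (0.42 ± 0.11) and Coa5 fell (-0.35 ± 0.10). Of 20 tested biogenesis regulators, 0 passed with PDS or Braco-19, and Nrip1, a corepressor, fell with Phen-DC3 (-0.59 ± 0.15, adjusted p = 0.024). Nrf1 had log2 changes of 0.011, 0.004 and -0.074, and Tfam, which maintains mitochondrial DNA, -0.10, 0.11 and 0.20 with PDS, Phen-DC3 and Braco-19. Gabpa had 0.27, -0.38 and -0.21, and none of these 3 genes passed. Ppargc1a, the coactivator PGC-1alpha, was at most 0.061 CPM in any group mean and was not tested. Of 23 tested genes of the citric acid cycle and pyruvate entry, Suclg1, a subunit of succinyl-CoA ligase, rose with Phen-DC3 (0.29 ± 0.078, adjusted p = 0.034). Of 24 carriers and import genes, with Phen-DC3 the prohibitins Phb (0.36 ± 0.10) and Phb2 (0.32 ± 0.10) and the carrier Slc25a11 (0.21 ± 0.062) rose and Opa1, a fusion protein of the inner membrane, fell (-0.37 ± 0.091), and Immt, a protein of the cristae junctions, rose with PDS (0.28 ± 0.076, adjusted p = 0.025). For each of these 4 lists, 0 genes passed under Phen-DC3 with the 6 libraries alone, and without Phen-DC3 control replicate 1 or 2 or Phen-DC3 replicate 1 or 2. After the length correction 1 gene of the citric acid cycle list rose with Phen-DC3, and 0 genes of the other 3 lists passed. Without Phen-DC3 control replicate 3, 7 carriers rose and 2 fell, 4 assembly factors rose and 1 fell, 5 genes of the citric acid cycle list rose and 1 fell, and 1 regulator rose and 4 fell. Without Phen-DC3 replicate 3 these counts were 5 and 1, 8 and 2, 2 and 1, and 0 and 4. Of the carriers, 0 passed with PDS without any 1 PDS control or without PDS replicate 2 or 3, and with upper-quartile factors 0 rose and 1 fell.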

How the data were processed

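RNA of 18 libraries was measured by RNA-seq, and the authors deposited raw counts per gene, made with CASAVA, HISAT2 and featureCounts 1.5.0-p3, per the submitters' processing notes. No source used here names the genome build, annotation or strandedness, so overlapping and antisense genes cannot be told apart. From the deposited counts, edgeR 4.0.16 (R 4.3.3) was fitted to all 18 libraries with 1 mean per group, TMM factors and the group-wise filter on low counts, and genes were called by the quasi-likelihood test at a Benjamini-Hochberg adjusted p of 0.05 over 14184 tested genes. Each p-value and adjusted p printed comes from this test unless another is named. Counts of members at an unadjusted p under 0.05 are given without the share of all tested genes at that threshold. They cannot be set against a background. Each log2 fold change is followed by its standard error. CPM are on TMM-scaled library sizes, and RPKM also divide by the gene length in the deposited table. The length correction subtracted from each library a loess trend of its log2 values on length (span 0.5). The procedure was tested on simulated data: of 200 genes changed by 1 on the log2 scale, 132 (PDS), 140 (Phen-DC3) and 141 (Braco-19) were recovered, with 11, 3 and 7 false calls among 14044, 14030 and 14033 genes. Each gene was drawn independently, so a trend shared by genes within a library, such as that with length, was absent. Changes smaller than 1 were not simulated. These numbers therefore do not give the rate of false calls or of missed members in the real libraries. Library totals were 15715121 to 18369443 counts, and 3 libraries a group limit the precision.

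The members and lists were chosen with earlier results of these data known. Values in every library are given, by rule, for up to 8 called members per compound and direction by size, for the member with the smallest p in each complex where none was called, for members with the largest range of group means, and for preset members. The printed promoters were chosen after the values were seen. The values of 1 member are not reported here, although it is in the counts. Alternatives were RLE and upper-quartile factors, no filter or a CPM filter, the libraries of a comparison alone, DESeq2 1.42.0, limma 3.58.1 voom with sample weights, the length correction, a replicate block, summed rows of one symbol, and leaving out each library. Promoters were searched with Python 3.11.15, and figures were drawn with matplotlib 3.10.9.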

Additional observations from a re-analysis of the deposited data

Results flagged for a closer look

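The effects of PDS and of Phen-DC3 on these subunits differed by the test of the difference itself in 38 of 75 members, each with the lower change under PDS. The largest differences among them were -1.12 for Ndufb6, -1.05 for Uqcr11, -0.92 for Atp5md, -0.88 for Ndufb10 and -0.77 for Ndufa5 on the log2 scale. The effects of PDS and of Braco-19 differed in 17 members, again each with the lower change under PDS. The largest differences were -1.40 for Ndufb6, -1.31 for Ndufa13, -0.82 for Ndufb10, -0.80 for Ndufa7 and -0.75 for Ndufv1. The doses of the compounds are not in the labels, and each compound has control cultures of its own, so a difference between compounds and a difference between their experiments cannot be told apart.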

How the results depend on the processing

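The medians of the members for the 3 compounds kept their sign under each alternative run. The count over all tested genes moved too, so a member count alone does not show a change in the members. Where no count or share of all genes is printed for a run, its member count has no background here. Genes lower with PDS were 420 in the fit of all libraries, 1066 with the 6 libraries alone and 1096 with the length correction in them. Genes higher with Phen-DC3 were 311, then 1 with the libraries alone, 22 with the length correction and 1 with both. Genes higher with Braco-19 were 24, then 433 with the libraries alone and 314 with both. For PDS, the 2 lower members became 4 with upper-quartile factors, 20 with the 6 libraries alone, 4 by DESeq2, 9 by limma voom and 15 with the length correction in the libraries alone, which also gave 2 higher members, and leaving out 1 library gave 0 to 3. For Phen-DC3, the 24 higher members became 37 by DESeq2, 57 by limma voom, and 0 with the libraries alone, with the length correction, and with both, and leaving out 1 library gave 0 to 48. The Phen-DC3 median of 0.32 became 0.14 with the length correction and 0.13 with it in the libraries alone (0.25 to 0.40 without 1 library). For Braco-19, 0 higher members became 19 with the libraries alone, 5 by DESeq2, 25 by limma voom and 5 with the length correction in the libraries alone, and 0 to 4 without 1 library. Its median of 0.23 became 0.10 with the length correction and 0.11 with it in the libraries alone (0.17 to 0.28 without 1 library). The PDS median was -0.20 to -0.10 without 1 library. For PDS against Phen-DC3, the 38 members became 60 by limma voom, 14 with the length correction and 9 with it in the libraries alone, and 18 to 50 without 1 library. For PDS against Braco-19, the 17 members became 26 with upper-quartile factors, 42 with the libraries alone, 34 by DESeq2, 42 by limma voom, 11 with the length correction and 26 with it in the libraries alone (24 lower and 2 higher with PDS), and 6 to 31 without 1 library. Phen-DC3 against Braco-19 gave 0 in each. Over all tested genes, PDS against Phen-DC3 gave 1101 lower, 929 with the length correction and 639 with it in the libraries alone. PDS against Braco-19 gave 957 lower over all tested genes, 1727 with the libraries alone, 975 with the length correction and 1564 with both. Between PDS and Phen-DC3 controls, 8 members became 0 with the libraries alone, 16 by DESeq2, 30 by limma voom, 4 with the length correction and 0 with it in the libraries alone, and 0 to 25 without 1 library. Against the Braco-19 controls, 71 to 73 (PDS) and 71 to 72 (Phen-DC3) members were called without 1 library. Deviations from the group mean correlated at -0.25 to 0.072 between same-numbered libraries of a compound and its controls. With 3 libraries a group this cannot show whether same-numbered libraries shared a culture or animal. With the replicate block the counts were 0 lower for PDS, 0 higher for Phen-DC3, 10 for PDS against Phen-DC3 and 2 for PDS against Braco-19, and with the replicate block and length correction 0, 0, 1 and 3, with medians of 0.14 for Phen-DC3 and 0.11 for Braco-19. The cause of these shifts was not tested. Depth limited the muscle isoforms, with 5 to 43 counts in all for Cox8b, Cox7a1 and Cox6a2.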
